A study of Danio rerio with 6 samples.

Results

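A group of 237 genes, of 32520 in the count table, was high in EM replicates 2 and 3 and low in every other library of juvenile zebrafish. These 2 libraries are called the pair below. Members were chosen by their measured values. Each had at least 10 counts in both of these libraries, and its lower value there was at least 8 times its highest value in EM replicate 1 and the 3 control libraries. Values were CPM, the count per 1000000 counts of the library, with 0.5 added to both sides of the ratio. Because the choice used all 6 libraries, the levels below are descriptions, and no independent test of them is given. Tests over all genes follow, and their calls among members partly restate the rule.

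Whole bodies of fish of the AB strain were sequenced at 32 days after fertilization. Exposure was continuous for 32 days and began at fertilization. EM-juveniles had 10 µg/L exemestane (EM), a steroidal inhibitor of the aromatase that makes estrogens, in the solvent dimethyl sulfoxide (DMSO). Control juveniles had DMSO alone, labelled as 10 µL/L, and each treatment had 3 libraries of 25 pooled fish from a tank. The sexes of the pooled fish were not given in the sources used here. In such pools a change in the number of cells of a type and a change in RNA per cell cannot be told apart, and each pool reports its tank as a whole.

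Polyadenylated RNA was sequenced from libraries that keep the strand of the transcript, and reads were counted on 1 strand only. A gene transcribed from the strand opposite to an overlapping gene, such as an antisense long noncoding RNA, is then counted apart from it. Mitochondrial DNA shows the same arrangement: of the protein genes it holds, only the gene for subunit ND6 of respiratory complex I is encoded on the light strand, and its end lies against ND5 on the heavy strand.

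Library totals ranged from 3169530 to 7804654 counts. Between 24418 and 24966 genes were detected in 5 libraries, and 21182 in control replicate 2. Lens crystallins, keratins and striated muscle genes were present in all 6 libraries, with summed levels of at least 2998, 4769 and 21397 CPM. Egg coat and oocyte genes summed to 1139, 133 and 537 CPM in control replicates 1, 2 and 3, and to 9.10, 3.83 and 7.39 CPM in EM replicates 1, 2 and 3. On these genes EM replicate 1 lay with the other EM libraries. On the 237 genes it lay far below the pair because the rule required it, as it did for the controls.

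The 237 genes together took 12445 CPM in EM replicate 2 and 12339 CPM in EM replicate 3, or 1.24% and 1.23% of all counts. They summed to 221, 296 and 136 CPM in control replicates 1, 2 and 3, and to 111 CPM in EM replicate 1. Without the most abundant member, MT-ND6, the sums were 11192 and 11054 CPM in the pair of high libraries and between 89.3 and 176 CPM in the others. The median member had 15.6 and 16.8 CPM in EM replicates 2 and 3. In control replicates 1, 2 and 3 it had 0.166, 0 and 0.137 CPM, and in EM replicate 1 it had 0 CPM.

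**Figure D1:**
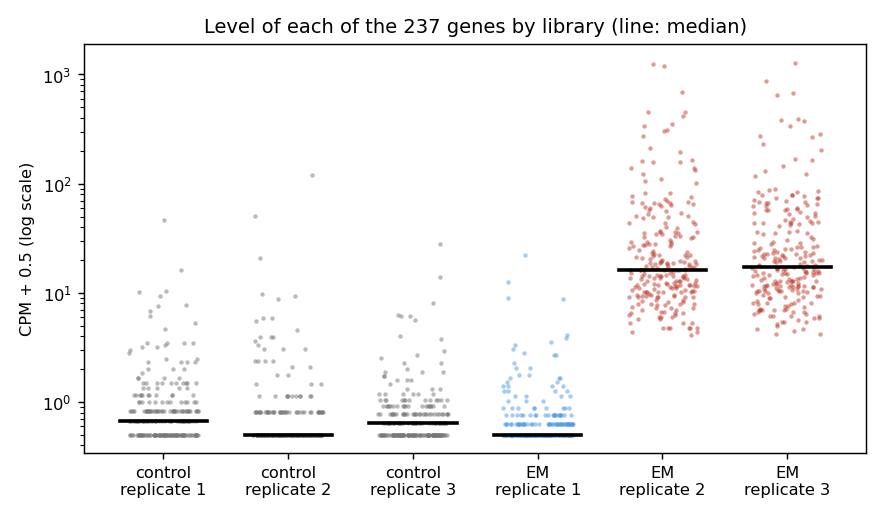
Level of each of the 237 genes (points, CPM + 0.5 on a log scale) in the 6 libraries, with the median as a black line. Medians of EM replicates 2 and 3 are 15.6 and 16.8 CPM, and the medians of the other 4 libraries are at most 0.166 CPM; the genes were chosen for this separation.

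Most members were close to undetected outside the 2 libraries. In all 4 other libraries 44 members had 0 counts, 160 had at most 3 counts, and 77 exceeded 3 counts in at least 1 library. Members at 0 counts numbered 79, 157 and 98 in control replicates 1, 2 and 3, and 123 in EM replicate 1. A count of 0 allows up to 3 counts, which is between 0.384 and 0.947 CPM in these libraries, counting error only. Among members with a count outside the pair, the highest of the other 4 libraries was control replicate 1 for 96 members, control replicate 2 for 36, control replicate 3 for 35 and EM replicate 1 for 26.

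Exposed fish of EM replicate 1 did not stand above the controls in these genes. It exceeded all 3 controls in 26 members (11.0%), beside 30.7% of the 18111 genes with at least 10 counts in EM replicates 2 and 3. It lay below all 3 controls in 41 members (17.3%), beside 7.92% of the genes of that set that were not members, and fell within the range of the controls in the other 170. The rule capped EM replicate 1 and the controls in the same way, and the genes that were not members had no such cap. The 123 members at 0 counts in EM replicate 1 could not exceed any control. Many of these values are 0 to 3 counts, so the order of the libraries is weakly measured.

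The lower value of EM replicates 2 and 3 ran from 3.59 to 1253 CPM, with a median of 14.8 CPM. It was at least 100 CPM for 19 members, from 10 to 100 CPM for 141, and under 10 CPM for 77. The ratio that defined membership had a median of 16.2, was at least 16 for 119 members and at least 64 for 10, and reached 232. The 10 members with the most counts held 46.3% of the group's counts in EM replicate 2 and 44.7% in EM replicate 3.

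The rule used only the lower of both libraries and set no direct limit on the ratio of EM replicate 2 to EM replicate 3. It left out genes that were high in EM replicate 2 or EM replicate 3 alone, so the agreement of members is partly selected. Its median over members was -0.06 on the log2 scale, and over the 17874 other genes with at least 10 counts in both it was -0.04. The levels in these 2 libraries lay within 2-fold of each other for 227 members (95.8%), beside 95.9% of the other genes. Across genes, Pearson's r of the log2 CPM was 0.954 for members (n = 237) and 0.959 for the others. Genes are not independent replicates, and both values share the depth of the same 2 libraries.

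**Figure D2:**
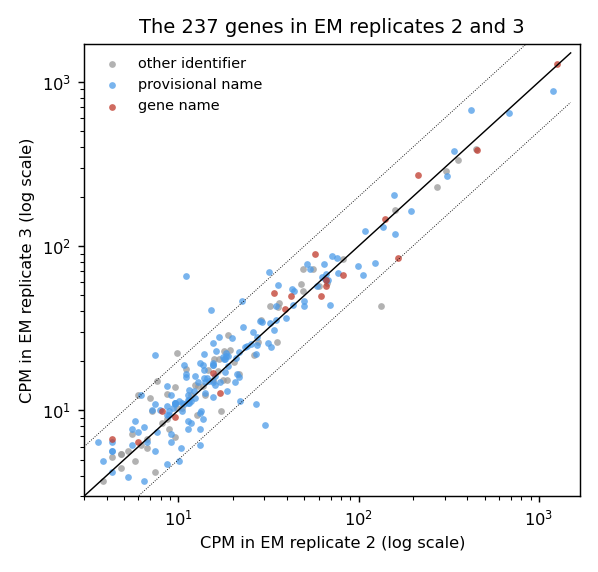
CPM of the 237 genes in EM replicate 2 and EM replicate 3 (log scales), coloured by kind of name, with the line of equality and dotted lines at 2-fold. Of the 237 points 227 lie within the dotted lines.

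Members with the largest differences between the pair were few. For si:ch211-250m6.10 the counts were 46 in EM replicate 2 and 265 in EM replicate 3, with 1, 0 and 2 in the controls and 3 in EM replicate 1. Similarly, si:ch211-146f2.7 had 31 and 88 counts, with 0 or 1 in each other library. In the opposite direction, a further gene with a provisional name had 126 and 33 counts, with at most 2 elsewhere. These genes differed by -2.52, -1.49 and 1.83 on the log2 scale, so that the 2 libraries were not copies of each other.

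Over all genes, DESeq2 called 99 of 24494 genes higher in EM-juveniles (0.404%) and 158 lower (0.645%) at an adjusted p-value under 0.05. Of the 237 members 77 were among those called higher and 0 were called lower, although the rule used this contrast and nothing can be read from that count. The edgeR quasi-likelihood test called 0 of 19264 genes in either direction (0%), with 759 at an unadjusted p-value under 0.05. It kept 27 members, of which 26 had an unadjusted p-value under 0.05. The rule used this contrast here too, so nothing can be read from that count either. Members left out by its expression filter were not tested. When EM replicate 1 was left out, DESeq2 called 404 genes higher (1.62%) and 131 lower (0.527%), the former including all 237 members, for which the remaining groups do not overlap by construction.

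A feature that the rule did not use was how the members were annotated. Only 18 members (7.59%) had a gene name in the reference name table, compared with 86.8% of the 17874 other genes with at least 10 counts in EM replicates 2 and 3. Provisional names that begin with si: were held by 153 members (64.6%), beside 10.5% of the others with a provisional name of any kind. No name was found there for 66 (27.8%), beside 2.77%. Ensembl identifiers numbered 92000 or above were carried by 222 members (93.7%) and by 20.9% of the others. The number limit was set with earlier results known. The rule keeps members low in 4 of 6 libraries, and the other genes were not matched to them on level. How far these shares follow from level was not tested. Gene models with such numbers and provisional names have seldom been studied, and no role is given for them here.

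Provisional zebrafish names of this form give the genomic clone in which the gene was found. The 153 members with such a name came from 149 clones, and 4 clones held 2 members each. From one of them, si:ch211-158m24.12 had 58, 158 and 13 counts in the control libraries, 10 in EM replicate 1, and 2864 and 2610 in the pair. Its neighbour si:ch211-158m24.13 had 4, 0 and 7 counts in the controls, 3 in EM replicate 1 and 275 in both high libraries. The 153 members with such a name thus carried the names of many clones rather than of a few. Members without such a name are not covered. The number of clones was not compared with that of other genes with such names. Whether different clones lie close together in the genome was not examined.

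MT-ND6 had the most counts of any member. It had 276, 381 and 201 counts in control replicates 1, 2 and 3, 168 in EM replicate 1, and 5233 and 5214 in the pair. In CPM these were 45.8, 120 and 27.4 in the control libraries, 21.5 in EM replicate 1, and 1253 and 1285 in the others. The ratio of the lower high library to the highest other library was 10.4. On the log2 scale it was 3.38, and 4.76 without control replicate 2, which held the highest of the low values. With DESeq2 or TMM scaling it was 2.62 or 2.67, under the limit of 3 that a fold of 8 gives, so of the 3 scales tried MT-ND6 was a member only with library totals. Of 38 named members, 7 fell under the limit with either scaling, among them si:ch211-158m24.12 (2.89 and 2.95), HBE1 (2.68 and 2.73) and pusl1 (2.69 and 2.73).

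No other mitochondrial protein gene behaved in this way. For the other 12, the same ratio lay between 0.349 and 0.977, so that the lower of the pair was below the highest other library in each. One of them, mt-atp8, was barely detected, with at most 6 counts in a library. Their summed level was 38296, 81842 and 28214 CPM in the controls and 29016, 34865 and 34526 CPM in EM replicates 1, 2 and 3. MT-ND5, the heavy-strand neighbour and likewise a complex I subunit, had 24167, 22523 and 17882 counts in the controls and 19371, 13388 and 14247 in EM replicates 1, 2 and 3. The MT-ND6 count was 1.14%, 1.69% and 1.12% of the MT-ND5 count in the control libraries, 0.867% in EM replicate 1, and 39.1% and 36.6% in the pair. Among the mitochondrial protein genes only the light-strand gene separated the pair from the rest. The group also held a gene that is named after the mitochondrial reference sequence and is not among these protein genes, with 43, 11 and 41 counts in the control libraries, 22 in EM replicate 1, and 1883 and 1561 in the pair, a ratio of 50.4.

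**Figure D3:**
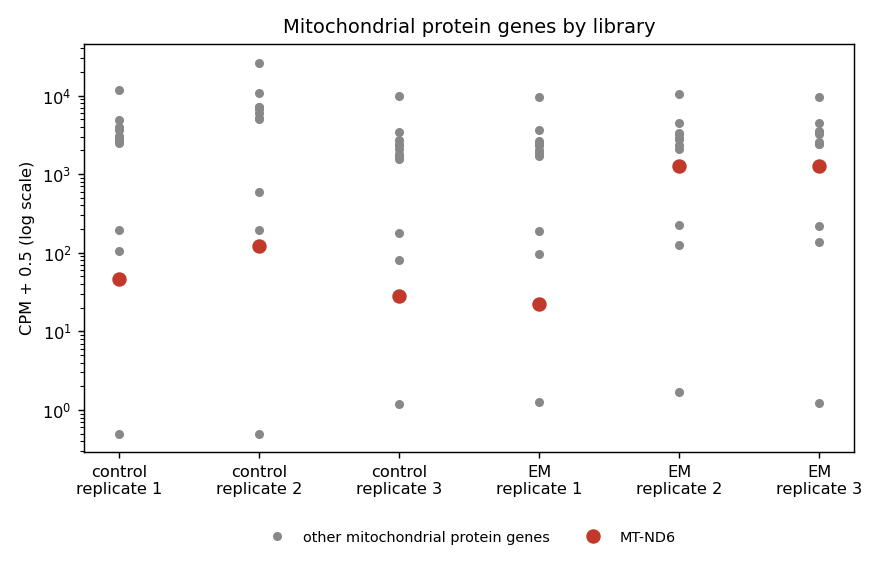
CPM + 0.5 (log scale) of MT-ND6 (red) and the other 12 mitochondrial protein genes (grey) in each library. MT-ND6 sits at 1253 and 1285 CPM in EM replicates 2 and 3 and between 21.5 and 120 CPM elsewhere, whereas the grey genes have ratios of at most 0.977.

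Several members with the highest counts had provisional names. The largest ratio in the group, 232, belonged to si:dkey-57c15.11, with 11, 1 and 24 counts in the control libraries, 17 in EM replicate 1, and 4996 and 3554 in the pair. For si:dkey-162b3.5 the counts were 29, 29 and 10 in the control libraries, 18 in EM replicate 1, and 1747 and 2729 in the pair. In si:dkey-31n5.4 the low libraries were higher than in most members, at 44, 28 and 98 counts in the controls and 94 in EM replicate 1, against 1408 and 1530. The high and low libraries did not overlap for any of them, as the rule required.

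Other genes of this kind were near 0 outside the pair. The controls had 15, 11 and 5 counts of si:dkey-30k6.7 and EM replicate 1 had 0, whereas EM replicates 2 and 3 had 1286 and 1080. The unnamed gene ENSDARG00000116881 had 16, 11 and 6 counts in the control libraries, 1 in EM replicate 1, and 1479 and 1354 in the pair. For si:ch211-276i12.12 the counts were 2, 1 and 0, then 0, and 817 and 660, a ratio of 196. EM replicate 1 was at or below every control for these 3 genes.

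The largest ratios among the remaining genes were those of si:ch73-343g19.8 (95.1), si:ch211-153n19.3 (78.9), si:ch1073-127a7.1 (78.7) and si:dkey-33g13.4 (76.5). Each of these 4 had at most 7 counts in any library outside the pair. These ratios rest on the added 0.5 CPM, and that of si:ch73-343g19.8 rose from 6.57 to 7.89 on the log2 scale when 0.1 CPM was added instead.

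Among the members with a gene name, bcl2l16, of the Bcl-2 family whose proteins promote or restrain apoptosis, had 59, 8 and 56 counts in the controls. It had 64 counts in EM replicate 1, against 890 and 1099 in the pair. It was the only member in the list of cell death genes, which held 41 genes, 38 of them with at least 10 counts in the pair. The list was drawn by symbol, and symbols beginning with anxa1 also brought in anxa11b, anxa13 and anxa14. It is therefore broader than its name. DESeq2 called 2 of the 41 higher and 0 lower in EM-juveniles, beside 0.404% and 0.645% of all genes tested. One of the 2 was bcl2l16 itself, which had been chosen on this contrast. The median of the membership ratio over the 38 was 0.885, beside 0.722 over all 18111 genes.

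The other 11 gene lists held no member. They were lens crystallins, actinotrichia genes of the fin fold, haemoglobins, egg coat and oocyte genes, vitellogenins, the male pathway, keratins, striated muscle, fibrillar collagens, steroid and bile acid enzymes, and heat shock genes. The egg coat and oocyte list and the vitellogenins had 0 genes with at least 10 counts in the pair, so they could not hold a member. Members were 237 of 18111 genes with such counts, so nothing is read from the absence in the short lists. The lists were drawn by symbol, and that of keratins also took in KRTCAP2. Over all 12 lists DESeq2 tested 229 genes and called 12 higher and 30 lower, beside 0.404% and 0.645% of all genes tested. Of the 30 called lower, 25 were egg coat and oocyte genes. The lists were chosen with earlier results known, so nothing is read from these counts. The haemoglobin list took symbols that begin with hba or hbb, so it left out a member carrying the name of the embryonic globin HBE1. Only hbbe3 in the list began with hbb, and it had 0 counts in all 6 libraries. HBE1 had 6, 17 and 4 counts in the control libraries, 20 in EM replicate 1, and 276 and 252 in the pair. That name is shared by several identifiers, so the gene is uncertain where reads could be split between near-identical copies.

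Genes of mitochondrial or membrane proteins were also well detected. The gene letmd1, whose product lies in the mitochondrial inner membrane in mammals, had 53, 0 and 38 counts in the control libraries, 66 in EM replicate 1, and 584 and 590 in the pair. A member of the Bax inhibitor motif family, tmbim1b, had 12, 1 and 8 counts in the control libraries, 9 in EM replicate 1, and 340 and 271 in the pair. Control replicate 2 was the lowest library for both.

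Genes of transport and RNA metabolism followed. The solute carrier slc35f3a had 3, 6 and 5 counts in the control libraries, 4 in EM replicate 1, and 175 and 200 in the pair. The pseudouridine synthase-like gene pusl1 had 14, 9 and 18 counts, then 26, and 142 and 211. The RNA polymerase III subunit gene polr3g had 8, 2 and 3 counts, then 1, and 65 and 68. In CPM, EM replicate 1 lay above all controls for pusl1, below all of them for polr3g and within their range for slc35f3a.

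At the lower end, lhfpl5b, of a family with a part in hair cell mechanotransduction, had 71 and 52 counts in the pair and at most 2 elsewhere. MCMDC2, known from meiotic recombination in mice, had 40 and 37 counts and at most 1 elsewhere. CYTH3, a gene of the cytohesin exchange factors for small GTPases, had 25 and 26 counts, and the spliceosomal RNA U6 had 18 and 27. Both were at 0 in the other 4 libraries. Their CPM in the lower of the pair was 6.32 and 4.55 times that of the 3 counts that a 0 allows in the shallowest library. These values use library totals and leave out the counting error of the pair, so they are not firm lower bounds. U6 occurs in many near-identical copies, and its count is uncertain for that reason. Polyadenylated RNA was sequenced, and whether these reads come from U6 itself was not tested.

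Just inside the limit of 8 lay ENSDARG00000097709, at 8.004, and si:ch211-195c22.3, at 8.18. Just outside lay a gene at 7.997 with 198 and 178 counts in the pair, and si:dkey-40m6.16 at 7.95 with 25 and 32 counts. The 2 members had 26 and 25 counts, and 15 and 26 counts, in the pair.

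Several named members shared their position with another gene. RefSeq gene positions on assembly GRCz12tu were used only to see which genes neighbour or overlap each other, since the counts were made on GRCz11, and this comparison was chosen after the values had been seen. By name, 19 members were matched, of which 15 (78.9%) overlapped another RefSeq gene, beside 39.0% of 15057 matched genes that were not members. A measured gene with a higher mean CPM, not corrected for length, was overlapped by 9 members. The rule keeps members low in 4 of 6 libraries and so lowers their own mean, and this number is not compared with that of other genes. With a stricter match, limited to names that a single identifier holds, 13 of 16 members (81.3%) overlapped a gene, beside 38.9% of the others, and 8 overlapped a more abundant one. The matched members are 19 of 237 and are those with names, so the shares do not describe the group as a whole.

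RefSeq classed 3 of the 19 (15.8%) as long noncoding RNA and 16 (84.2%) as protein coding. Among the 15057 matched genes that were not members the shares were 0.511% and 99.4%. The 2 sets were not matched on level, and only members matched by name are covered. One of the 3 noncoding members was grnas, which overlaps grna.1, a granulin precursor gene. It had 2, 0 and 1 counts in the control libraries, 0 in EM replicate 1, and 257 and 202 in the pair. The counts of grna.1 were 179, 150 and 945 in the controls and 244, 271 and 186 in EM replicates 1, 2 and 3. The member's count thus went from at most 1.12% of that of its partner to 94.8% and 109%. The partner, grna.1, did not separate the pair from the rest. Members were chosen for such a rise, so the percentages here and below largely restate the rule.

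For armc2, needed for sperm flagella in mice, the counts were 18, 10 and 16 in the control libraries, 12 in EM replicate 1, and 692 and 341 in the pair. It overlaps sesn1, a stress-induced sestrin, with 1321, 444 and 2703 counts in the controls and 2743, 1191 and 630 in EM replicates 1, 2 and 3. The member's count was 58.1% and 54.1% of that of sesn1 in the pair and at most 2.25% elsewhere. Both genes were higher in EM replicate 2 than in EM replicate 3, by 0.97 and 0.87 on the log2 scale.

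The reverse order was seen for pkd1l2b, of the polycystin family, with 240 and 363 counts in the pair and between 4 and 18 elsewhere. It overlaps psmd7, a subunit of the proteasome lid, which had 399 and 593 counts in the pair. The member's count was 60.2% and 61.2% of that of psmd7 there, and at most 2.69% in the other libraries. Here both genes were lower in EM replicate 2, by -0.63 and -0.61 on the log2 scale. The name pkd1l2b is held by more than 1 identifier, and it is not matched under the stricter rule.

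The sequestosome gene sqstm1, an autophagy receptor, is overlapped by mrnip, whose product binds a DNA repair complex in mammals. Counts of mrnip were 16, 6 and 11 in the control libraries, 14 in EM replicate 1, and 163 and 167 in the pair, or 74.4% and 73.2% of sqstm1 in the pair and at most 9.52% elsewhere. The fucose mutarotase gene fuom had 25, 8 and 41 counts in the control libraries, 28 in EM replicate 1, and 275 and 232 in the pair, or 19.8% and 20.8% of the overlapping si:ch211-217g15.3. These 2 members had the highest shares of their partners outside the pair.

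Of the 9 members that overlap a more abundant gene, 7 are described here. They include MT-ND6, given earlier, which counts as overlapping MT-ND5 by RefSeq positions. The length of the overlaps was not examined. The last of the 7, the noncoding loc100333843, overlaps the collagen gene col23a1b. It had 34 and 40 counts in the pair and at most 2 elsewhere, or 42.0% and 44.0% of the count of col23a1b in the pair and at most 2.78% in the other libraries.

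**Figure D4:**
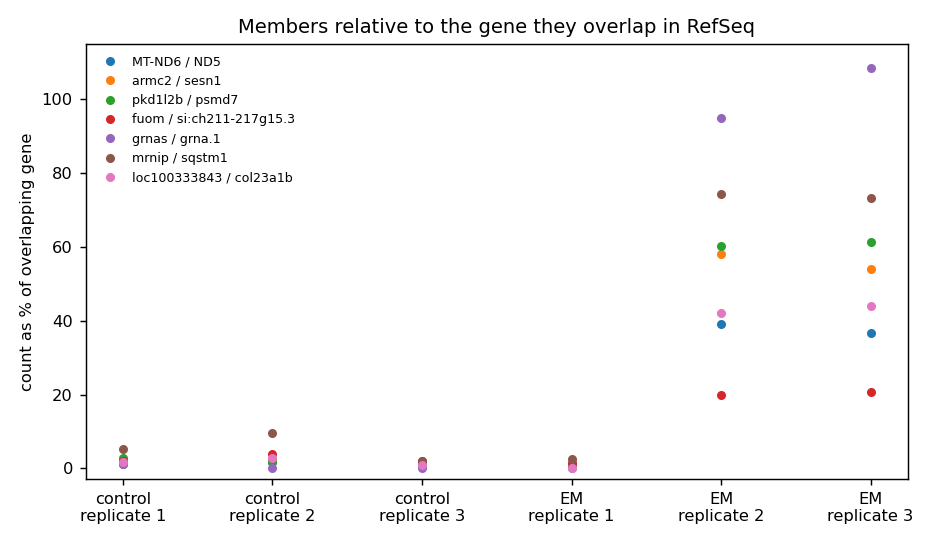
Count of 7 members as a percentage of the count of the more abundant gene they overlap in RefSeq, by library. Values run from 0 to 9.52% in the controls and EM replicate 1, and from 19.8% to 109% in the pair. The members were chosen as higher in the pair, so this separation largely restates the rule.

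Over these 7 overlaps the percentage differed between EM replicates 2 and 3 by 1.02 to 1.15 fold. The rule left the log2 ratio of EM replicate 2 to EM replicate 3 only partly free, since it required members to be high in both. This ratio differed between member and partner by a median of 0.070 over the 7 and of 0.083 over all 9. The difference was at most 0.19 in either. Its median was 0.40 over the overlaps of genes that were not members. Those genes were not under the rule and not matched on counts, and no test was made. Among the other members with a measured partner, bcl2l16 overlaps adgrd2, which had 12 and 13 counts in the pair, and MCMDC2 overlaps ppp1r42, which had 3 in each, so that these members had far more counts than their partners. No RefSeq overlap was found for letmd1, slc35f3a, pusl1 and polr3g.

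**Figure D5:**
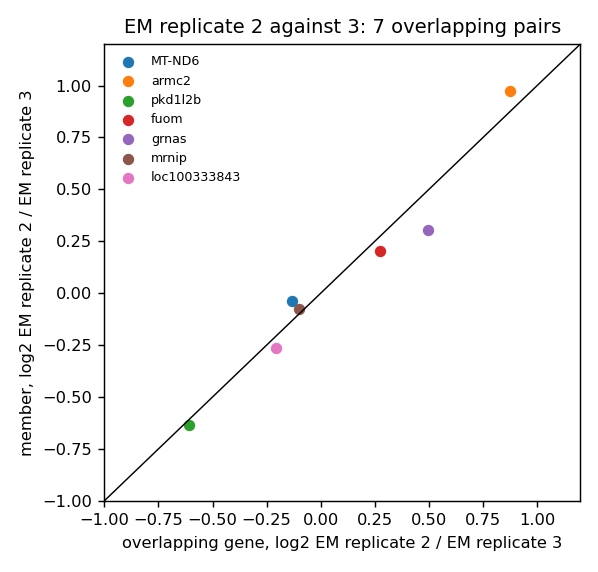
Log2 ratio of EM replicate 2 to EM replicate 3 for 7 members (vertical axis) and for the more abundant gene each overlaps (horizontal axis), with the line of equality. The points lie within 0.19 of the line.

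Most low genes did not reach a ratio of 2, both where they overlap an abundant gene and where they overlap no gene. Among matched genes whose highest value in the other 4 libraries was under 5 CPM, the ratio reached 2 in 5 of 84 (5.95%) that overlap a gene at 50 CPM or more in all libraries, and in 13 of 2470 (0.526%) that overlap no gene. The 5 include 3 members, chosen by the rule. Without the members the numbers were 2 of 81 (2.47%) and 11 of 2468 (0.446%). These sets do not hold every low member of the looser match. The genes were picked by their level outside the pair and scored with the ratio of the rule. The difference between the shares was not tested, and nothing is read from it. The reference table gives no strand, so which members lie opposite to their partners was not read from it. The part that strand assignment of reads in EM replicates 2 and 3 has in these values was not tested.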

How the data were processed

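The authors sequenced stranded, polyadenylated RNA from 6 juvenile pools, aligned reads to GRCz11 with HISAT2 2.0.5, removed duplicates with SAMtools 1.5 and counted reverse-strand reads over exons of Ensembl 95 genes with HTSeq 0.9.1. The deposited values are raw counts per gene. Groups and replicate numbers came from the sample titles. CPM used each library's total. Members and gene lists were chosen with earlier results of these data known. The overlap comparison, its partner rule (the overlapping measured gene with the highest mean CPM) and its 2 versions of name matching were devised after the values were seen. The looser match was adopted second and is the one shown in the plots. The values of 2 of the overlaps are not reported here.

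Genes named were the 10 with the highest lower CPM, the 5 with the largest further ratios, those with a gene name, those next to the limit and those differing most between EM replicates 2 and 3. Of these, 4 whose only name is a sequence accession are not printed by name. Symbols came from the reference name table, and for 20 members only from gene tables of the study, which hold results of these samples.

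All genes were tested in R 4.3.3 with DESeq2 1.42.0 (two-sided Wald test, default filters, Benjamini-Hochberg adjustment), as the design set out, and with edgeR 4.0.16. Independent filtering was first set for an adjusted p-value of 0.05. The default was then taken as the main fit, with both results known. The tests and the rule were checked on simulated data. Pairs of same-group libraries differed by more than sampling noise (chi-square per degree of freedom 7.76 to 79.0), so 3 replicates per group were kept. They came from separate tanks. Other choices tried were scaling, fold limit, count minimum, pseudocount, thinning to the smallest total, and leaving out each library. The authors' own comparison tables were not used for values. No sequence is printed, since no genome was used here.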

Additional observations from a re-analysis of the deposited data

How the results depend on the processing

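The number of members was 373 with a fold limit of 4 and 119 with a limit of 16, in place of 237. Under 2 other scalings, 2 other count minimums, 2 other pseudocounts and thinning it ranged from 164 to 331. Leaving out 1 library gave 239 to 276, and by the form of the rule it can only raise the number. After thinning, 217 of 229 members were shared with the 237. Over 38 named genes, 404 of 418 recomputed log2 ratios moved by less than 1, 14 rose by more, and none changed sign. The runs without 1 library, which are among these, could not lower a ratio. With DESeq2 or TMM scaling, 7 of the 38 fell under the 8-fold limit. The calls of DESeq2 were less stable. The edgeR quasi-likelihood test called 0 genes higher, 0 of them members. With a replicate block DESeq2 called 64 of 20859 genes higher, 43 of them members, in place of 99 of 24494 with 77 members. Leaving out 1 library gave 17 to 404 genes and 11 to 237 members. The highest of both came without EM replicate 1 (24865 genes tested), and the lowest without EM replicate 3 (23340 tested). Without EM replicate 2, 18 of 22753 genes were called higher, 13 of them members. Without control replicate 1, 2 or 3, DESeq2 called 42, 79 and 113 genes higher, of 24357, 23411 and 20124 tested. Of these, 32, 19 and 24 were members. The rule made members low in EM replicate 1 and high in EM replicates 2 and 3. Member counts without 1 of these libraries partly restate that choice. Why the runs without a control differed was not tested. Independent filtering set for an adjusted p-value of 0.05, which was run before the default, gave 101 genes higher, 159 lower and 78 members. The choice between both settings was made with their results known. Deviations of same-numbered libraries correlated at 0.01, 0.13 and -0.15. With 3 libraries per group these values cannot exclude that same-numbered libraries share a factor. The sample titles give only a replicate number, so whether the block stands for pairs is not known. The lowest count of a member in EM replicates 2 and 3 was 15, and a minimum of 5 counts left the number at 237.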
